A study of Mus musculus with 21 samples.

Results

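Transcript levels in mouse testes at gestation day (gd) 16 were compared with those at gd14, over 6 arrays of the 21 in the series, 3 at each stage. Every probe set that names 1 gene was included, which was 34945 of 45101 on the array. After a filter on dim probe sets and the choice of 1 probe set per gene, 14338 of the 18193 genes so named were tested. The gd16 testes were those of wild-type male CD-1 mice, an outbred stock, at Theiler stage 24, and the gd14 testes came from males of the same stock at Theiler stage 22. Dams were mated within a short window, the gonads were taken out whole and frozen, and each of these 6 arrays held unpooled RNA, according to the series the testis pair of 1 animal with a dam of its own. The other testis arrays (5 at gd11 from pools of 2, 3 at gd12 from pools of 5, and 3 single-animal arrays each at gd18 and postnatal day (pnd) 2) served to estimate each gene's spread and to show its course over time. The design text describes single animals at every stage, which the labels of the gd11 and gd12 samples contradict.

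Between these days the fetal testis passes through an ordered set of events. Germ cells, which reach the gonad as primordial germ cells with an active pluripotency network, leave the cell cycle inside the testis cords, shut that network down and take on a male fate in which the genome is methylated anew and transposons are silenced through Piwi-interacting RNAs (piRNAs). Sertoli cells surround them and make anti-Müllerian hormone and hedgehog signals, fetal Leydig cells in the interstitium make androgen from cholesterol, and peritubular myoid cells and matrix enclose the cords. Blood of the fetus changes at the same time, as large yolk-sac red cells with embryonic globins give way to red cells from the fetal liver. Whole organs were measured, so fewer cells of a type and less RNA per cell cannot be told apart in any value below.

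Values are deposited intensities per probe set in arbitrary units. All arrays are scaled to 1 trimmed mean, and 1 probe set's level says nothing about that of another. Differences are log2(intensity + 22.4) at gd16 minus the same at gd14, the offset of 22.4 being the level that 20% of testis values lie below, so that the difference understates the change of a dim gene. Standard errors (SE) and p-values come from a limma fit, Benjamini-Hochberg adjusted over the 14338 genes, and a gene is called at an adjusted p below 0.05. A mean below 71.6, the 40th percentile of the testis values, is described as near background. The p-values measure the spread between these samples, which for gd11 and gd12 includes pools.

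Arrays correlated at 0.973 to 0.976 within gd16, 0.971 to 0.974 within gd14 and 0.955 to 0.970 between the stages. One gd16 testis, array 8, lay closer to gd14 than arrays 7 and 9, with a mean correlation to the gd14 arrays of 0.967, against 0.962 for array 7 and 0.958 for array 9. It was the gd16 array nearest the gd14 mean for 957 of the 1488 called genes (64.3%) and for 43.6% of all genes. The results below are therefore also given without it where it moves them. The 3' to 5' ratio of the actin control, a sign of RNA integrity, was 1.30 to 1.34 at gd16 and 1.29 to 1.40 at gd14. Testis identity was borne out by the markers: Sertoli gene Dhh measured 3300.0, 2931 and 3210.1 in gd16 testes, against 2727, 3500.4 and 3419 in gd14 testes, and Leydig gene Cyp17a1 measured 29975, 24926 and 25221 in gd16 testes, against 16564, 16806 and 17994 in gd14 testes. The ovarian factor Foxl2 measured 224, 222 and 161 in gd16 testes, against 213, 240.0 and 155 in gd14 testes, with overlapping groups.

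In all, 1488 genes were called (10.4%), 773 higher at gd16 (5.39%) and 715 lower (4.99%), with a median difference of 0.05 over all 14338 genes. At least 2-fold, 369 genes rose and 120 fell, and at least 4-fold, 53 rose and 25 fell, although the largest changes of all were falls. An unadjusted p below 0.05 was reached by 3599 genes, and the ranges of the 2 stages did not overlap for 5613 of all 14338 genes. The largest falls were those of Dppa3, Sox2, the embryonic globins Hba-x and Hbb-y, Cdh1 and Dppa5a, and the largest rises those of S100a8, Clca1, Dntt, S100a9, Hsd17b2 and Dmkn. Counts of called members in the lists below stand against these shares of all genes. The number of calls depended on which array was left out: it was 1226 without gd16 array 8, 606 without gd16 array 7, 494 without gd16 array 9, and 583, 920 and 858 without gd14 arrays 10, 11 and 12.

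**Figure D1:**
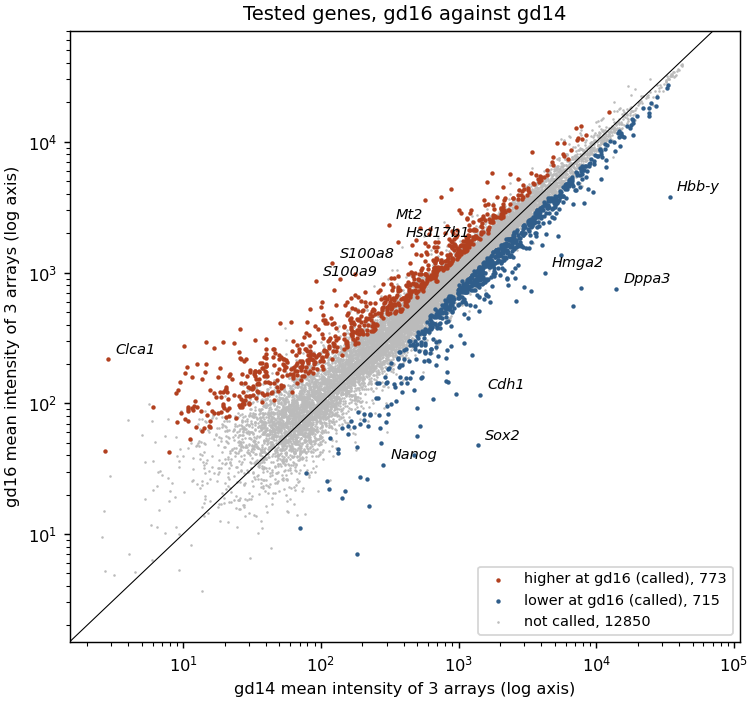
Mean intensity of each of the 14338 tested genes at gd16 (vertical, log axis) against gd14 (horizontal, log axis), 3 arrays each, with 773 genes called higher at gd16 in red, 715 called lower in blue, 12850 not called in grey and equality as a line. The called rises reach down to genes with gd14 means near background (Clca1), while the falls include some of the brightest genes at gd14 (Hbb-y, Dppa3).

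In the germ cell pluripotency network 9 of 27 measured genes fell between gd14 and gd16, led by Dppa3 and Sox2. Dppa3 (also called Stella), a chromatin protein of primordial germ cells, measured 417, 1457 and 380.2 in gd16 testes, against 14522, 13541 and 13972 in gd14 testes. All gd16 values lay below all gd14 values, and array 8 was the highest of the gd16 testes. The difference was -4.45 ± 0.45 (SE; limma, adjusted p = 2.08e-05), and -5.06 without array 8. Sox2, a core factor of the pluripotent state, measured 11.4, 82.1 and 49.8 in gd16 testes, against 1758, 1183 and 1220.0 in gd14 testes. The gd16 testes were near background or just above it, and the groups did not overlap. Its difference was -4.45 ± 0.97 (SE; adjusted p = 0.00741). The fit holds 1 spread per gene over all stages, and Sox2 stood at 2901 ± 3541 at gd11 (SD, n = 5).

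Nanog, a partner of Sox2 and Oct4, measured 34.4, 35.6 and 31.9 in gd16 testes, against 378, 225 and 246 in gd14 testes. It was thus near background on each gd16 array, with a difference of -2.40 ± 0.36 (adjusted p = 4.96e-04). Pou5f1, which encodes Oct4, measured 723, 1261 and 758 in gd16 testes, against 2303, 2367 and 2122 in gd14 testes. It fell less (-1.33 ± 0.41, adjusted p = 0.0465), and its call was lost without any 1 of 5 arrays other than gd16 array 8, with the highest adjusted p, 0.161, without gd16 array 9. Dppa5a, an RNA-binding protein of pluripotent cells, measured 514, 1076 and 687 in gd16 testes, against 10057, 7218 and 6118 in gd14 testes, with no overlap and a difference of -3.36 ± 0.47 (adjusted p = 3.74e-04).

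Of 27 measured genes of the pluripotency and primordial germ cell list, 9 fell (33.3%, against 4.99% of all genes), 18 were not called and none rose, with a median of -0.90. The other falls were those of Tcl1, a co-activator of Akt kinase (-2.35), Zfp42, known as the stem cell marker Rex1 (-2.24), the signal Nodal (-1.61) and its antagonist Lefty1 (-1.95). The stem cell factors Prdm14 (-1.31), Dppa2 (-1.28) and Lin28a (-1.23) did not pass, although their ranges did not overlap between the stages. Kit, the receptor for stem cell factor, was not called (0.44), nor was Klf4 (0.51). Without gd16 array 8 the count was again 9, and it was 6 without gd16 array 7, gd16 array 9, gd14 array 10 or gd14 array 11. Dppa3, Sox2, Dppa5a, Nanog, Tcl1 and Zfp42 were called without each array in turn.

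**Figure D2:**
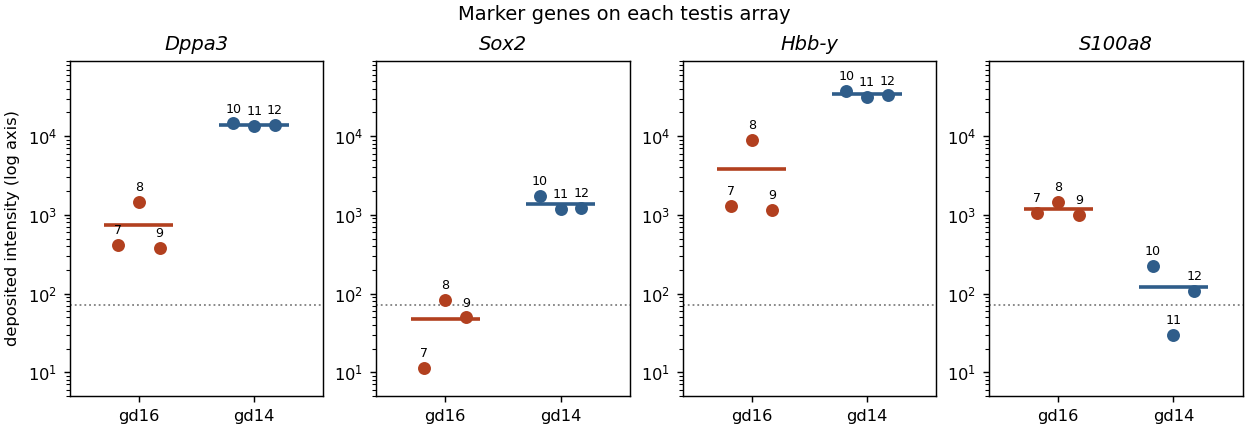
Deposited intensity (log axis) of Dppa3, Sox2, Hbb-y and S100a8 on each array, gd16 in red at the left and gd14 in blue at the right, numbered by array, with the mean as a bar and the near-background level of 71.6 as a dotted line. The groups do not overlap in any panel, and gd16 array 8 is the highest gd16 array in each.

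Among genes of the later germ line, calls ran in both directions. Dnmt3l, the cofactor of new DNA methylation in fetal male germ cells, measured 3129.8, 3213 and 2615 in gd16 testes, against 1356, 966 and 1341 in gd14 testes, and it rose by 1.28 ± 0.33 (adjusted p = 0.0211). Dnmt3a, the methyltransferase it works with, measured 1807, 1635 and 2103 in gd16 testes, against 1083, 1237 and 1147 in gd14 testes (0.66 ± 0.20, adjusted p = 0.0385). Both pairs of groups stood apart. The other kept probe sets of Dnmt3a rose less, by 0.23 to 0.43, and none of them was called. Each call held in only 1 of the 6 fits that left out an array, with a highest adjusted p of 0.083 for Dnmt3l without gd14 array 11 and of 0.164 for Dnmt3a without gd16 array 9. The silencing genes Suv39h2, a histone H3 lysine methyltransferase, and Trim28, a corepressor, fell by 0.76 and 0.33 on the log2 scale. Other kept Suv39h2 probe sets differed by -0.32 and -0.20 and were not called. Of 21 genes of DNA methylation and heterochromatin, Dnmt3l, Dnmt3a, Suv39h2 and Trim28 were called, 9.52% in each direction, with a median of -0.01.

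Among 22 genes of the piRNA pathway and other fetal male germ cell genes, 1 rose and 4 fell (4.55% and 18.2%, against 5.39% and 4.99% of all genes, median -0.08). The riser was Tdrd9, a helicase of transposon silencing, which measured 2693, 2825 and 3064 in gd16 testes, against 1104, 857 and 1179.9 in gd14 testes (1.44 ± 0.29, adjusted p = 0.00425). Tdrd5, another Tudor protein of germ granules, measured 801, 874 and 669.5 in gd16 testes, against 3000.2, 3357 and 2661 in gd14 testes and fell (-1.92 ± 0.34, adjusted p = 0.00192). These 2 Tudor genes therefore moved in opposite directions, each in every fit that left out 1 array. The RNA-binding protein Dazl (-1.25), the piRNA factor Asz1 (-1.28) and the Tudor protein Rnf17 (-1.24) also fell, but their calls were lost in at least 3 of those 6 fits, and the count of falls ranged from 1 to 3. Other kept Rnf17 probe sets differed by -0.85, -0.86 and -0.12 and were not called. The Piwi proteins Piwil2 (0.31) and Piwil4 (0.42) and the germ cell helicase Ddx4 (-0.65) were not called.

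Of 21 meiosis genes none rose and 2 fell (median 0.11). Both encode parts of the synaptonemal complex, which pairs chromosomes in meiosis: Sycp3 measured 683, 897 and 815 in gd16 testes, against 2517, 2147 and 2181 in gd14 testes (-1.49 ± 0.38, adjusted p = 0.0189), and Sycp1 differed by -1.22. The Sycp1 call was lost without any 1 array, and that of Sycp3 without gd16 array 7, gd16 array 9 or gd14 array 10. Stra8, the retinoic acid target that opens meiosis, measured 121, 90.8 and 163 in gd16 testes, against 164, 127 and 80.9 in gd14 testes, with overlapping groups. Tex11, an X-linked germ cell gene, fell (-1.51) and was the 1 call among 7 X-linked germ cell genes, held in 2 of the 6 fits without 1 array.

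In the list of 17 spermatogonial genes, 1 rose and 3 fell (median -0.53). Cdh1, the epithelial cadherin that also marks germ cells, measured 67.1, 168 and 113 in gd16 testes, against 1553, 1470.0 and 1292 in gd14 testes. All 3 gd16 arrays lay far below the gd14 arrays (-3.46 ± 0.43, adjusted p = 1.09e-04). The homeobox gene Lhx1 measured 6.91, 34.9 and 7.22 in gd16 testes, against 313, 209 and 154 in gd14 testes (-2.70 ± 0.56, adjusted p = 0.00527) and reached near background on each gd16 array. Its other kept probe set differed by -0.94 and was not called. The Ets factor Etv5 (-0.78) was called lower and the surface protein Thy1 (1.42) higher, neither without every array in turn. Other large falls outside the germ cell lists were those of the zinc finger factors Sall1, which measured 28.3, 47.8 and 44.4 in gd16 testes, against 528, 388 and 500.3 in gd14 testes, and Glis3, which measured 47.2, 81.8 and 40.5 in gd16 testes, against 636, 456 and 408 in gd14 testes. Both fell to near background or just above it on every gd16 array (-2.99 and -2.74). Gtsf1l, a relative of the piRNA factor Gtsf1, measured 40.2, 146 and 15.1 in gd16 testes, against 579, 459 and 531 in gd14 testes (-2.89), and Fam163a measured 7.14, 10.6 and 3.32 in gd16 testes, against 183, 289.5 and 73.2 in gd14 testes (-2.64).

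The embryonic growth programme, a set of chromatin and RNA-binding proteins active in early tissues, fell in 3 of 7 measured genes, with none higher (median -0.40). Its leading member was the chromatin protein Hmga2, with 760.3, 1208 and 1017 in gd16 testes, against 4189, 3894 and 4565 in gd14 testes, in which no gd16 value came near a gd14 value. The difference was -2.08 ± 0.21 (adjusted p = 2.08e-05). The RNA-binding protein Igf2bp3 measured 1793, 1748 and 1806 in gd16 testes, against 2358, 2358 and 2349 in gd14 testes, a small but tight change (-0.40 ± 0.08, adjusted p = 0.00318). Trim71, a target of the let-7 microRNA, fell too (-1.22), and its call was lost without gd16 array 7, gd16 array 9 or gd14 array 10. The growth factor Igf2 was not called (-0.11 ± 0.20, adjusted p = 0.791).

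Of 33 measured cell division genes 1 was called, with a median of -0.07. The riser was Ccnd2, the cyclin D2 of G1 phase, which measured 7383, 6466 and 7038 in gd16 testes, against 3887, 5899 and 4529 in gd14 testes (0.56 ± 0.16, adjusted p = 0.0308), and it was lost without 4 of the 6 arrays in turn. The proliferation marker Mki67 measured 5311, 6029 and 5337 in gd16 testes, against 4121, 4675 and 4792 in gd14 testes (0.29, adjusted p = 0.0965). Among 13 cell cycle inhibitors and pocket proteins, Cdkn2c (0.91), which blocks the cyclin D kinases, and the retinoblastoma relative Rbl2 (0.57) rose, and none fell (median 0.11). The Rbl2 call was lost without any 1 array and that of Cdkn2c without gd16 array 7, gd16 array 9 or gd14 array 10. The inhibitors Cdkn1b (0.11) and Cdkn1c (-0.19) overlapped between stages.

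Of 31 measured Sertoli cell genes 2 rose and 3 fell (6.45% and 9.68%, against 5.39% and 4.99% of all genes), with a median of 0.08. Hsd17b1, an enzyme that reduces oestrone and androstenedione, measured 2136, 1360.3 and 1646 in gd16 testes, against 277, 496 and 324 in gd14 testes. Every gd16 value exceeded every gd14 value, with a difference of 2.18 ± 0.38 (adjusted p = 0.00171). The cystatin Cst12, a protease inhibitor family member, measured 5311, 2233 and 5551 in gd16 testes, against 1310.4, 477 and 837 in gd14 testes (2.29 ± 0.38, adjusted p = 0.00117). Gd16 array 8 was the lowest of its group for Cst12 but still above every gd14 testis.

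The largest fall in the Sertoli list was that of Rhox5, an X-linked homeobox gene, with 562, 883 and 720.0 in gd16 testes, against 3676, 3362 and 2983 in gd14 testes (-2.19 ± 0.40, adjusted p = 0.00214). Rhox5 averaged 4180 ± 2260 at gd12 and 112 ± 62.7 at pnd2 (SD), and which cells held it was not tested. The cartilage-type collagen Col9a3 (-1.31) and Aard, a testis gene, (-0.72) fell as well, but lost their calls in 5 and 4 of the 6 fits without 1 array. Genes that define the cell type were not called: the factor Sox9 measured 614, 684 and 578 in gd16 testes, against 614, 567 and 684 in gd14 testes, and the hormone gene Amh measured 1535, 1858 and 991 in gd16 testes, against 990.2, 1752 and 1456 in gd14 testes. Neither pair of groups stood apart. The receptor gene Fshr (0.75, adjusted p = 0.0664) and the inhibin subunit Inha (0.74, adjusted p = 0.138) had higher values on every gd16 array without passing.

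**Figure D3:**
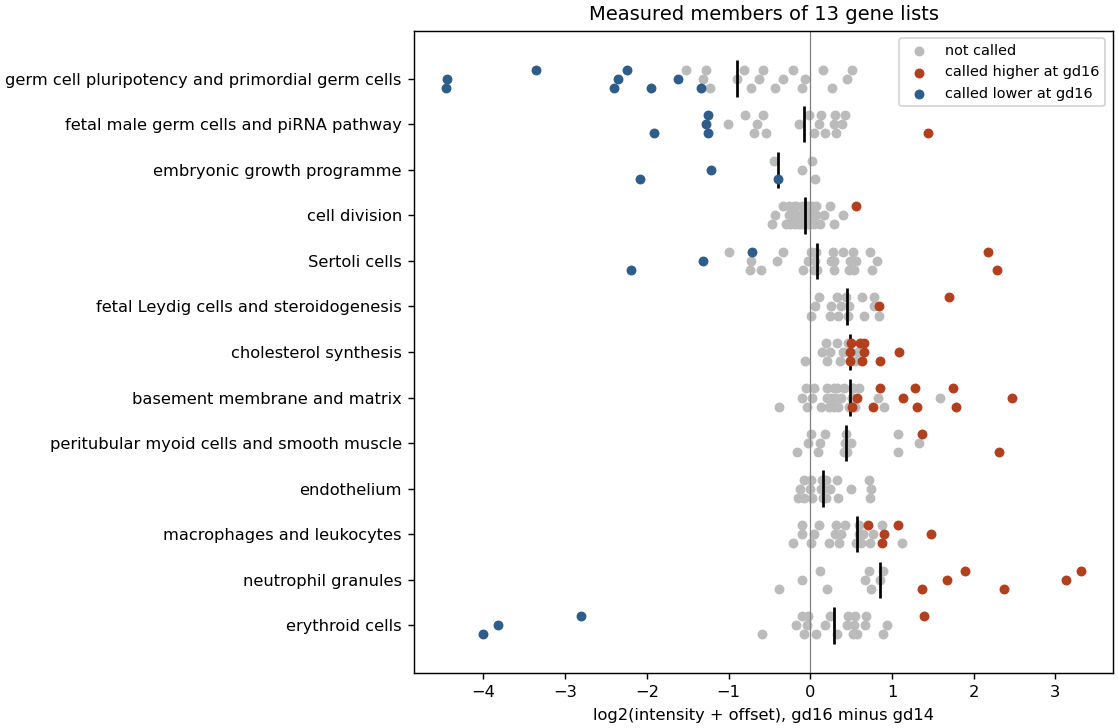
Difference in log2(intensity + 22.4), gd16 minus gd14, for each measured member of 13 gene lists, with called genes in red (higher at gd16) or blue (lower) and the list's median as a black bar. Pluripotency genes lie to the left, cholesterol synthesis, matrix and neutrophil genes to the right, and cell division genes around 0.

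Steroid-making Leydig cell genes were higher as a rule but few passed. All 18 measured genes had a difference above 0, with a median of 0.45, and 2 were called. Scarb1, the receptor that takes up cholesterol from lipoproteins, measured 14629.8, 12311 and 11579 in gd16 testes, against 7188, 7255 and 6899.6 in gd14 testes. It rose by 0.84 ± 0.20 (adjusted p = 0.0121), and its call was lost without gd16 array 7 (adjusted p = 0.0666). Thbs2, a matrix glycoprotein, measured 459, 212 and 443 in gd16 testes, against 124, 77.5 and 83.3 in gd14 testes (1.70 ± 0.26, adjusted p = 7.67e-04). Star, which moves cholesterol into mitochondria, measured 8655, 5264 and 4933 in gd16 testes, against 3274, 3081 and 3855 in gd14 testes (0.84 ± 0.60, adjusted p = 0.414). Its groups did not overlap, yet it did not pass, nor did the side-chain cleavage enzyme Cyp11a1 (0.79 ± 0.52, adjusted p = 0.369). In the fit of the 6 arrays alone, 10 of the 18 were called.

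Of 20 measured genes of cholesterol synthesis 9 rose and none fell (45%, against 5.39% of all genes), with a median of 0.49. Tm7sf2, a sterol reductase, measured 2471, 1765 and 1743 in gd16 testes, against 944, 879 and 928 in gd14 testes (1.08 ± 0.32, adjusted p = 0.0354). Ebp, a sterol isomerase, measured 1806, 1485 and 1506 in gd16 testes, against 823, 944 and 857 in gd14 testes (0.85 ± 0.16, adjusted p = 0.00273), and Sc5d, a sterol desaturase, measured 677, 626 and 734 in gd16 testes, against 418, 402 and 466 in gd14 testes (0.64 ± 0.15, adjusted p = 0.0106). No gd16 value of these 3 genes fell into the gd14 range.

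Hsd17b7, a reductase (0.66), the cyclase Lss (0.66), Msmo1, a sterol oxidase (0.61), Cyp51, a demethylase (0.50), Pmvk, a kinase of the early pathway (0.49), and the sterol sensor Scap (0.48) completed the 9. The early enzymes Hmgcs1 (0.37) and Sqle (0.24) and the regulator Srebf2 (0.14) did not pass. The count was 5 without gd16 array 8, 2 without gd16 array 7 or gd14 array 12, 3 without any 1 of the other arrays, 4 without an intensity trend and 13 in the fit of the 6 arrays alone. Ebp was called without each array in turn, whereas Tm7sf2 and Lss were lost without any 1 array.

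For 6 sterol genes and Scarb1 the step up to gd16 differed from the step after it. The change from gd14 to gd16 was tested against the change from gd16 to gd18 in the same fit, as gd16 doubled minus gd14 and gd18, so a positive value marks a gd16 level above the mean of the days around it. Both changes share the gd16 arrays. Of 14338 genes 198 passed (1.38%), and 1786 had an unadjusted p below 0.05. Tm7sf2, at 447 ± 259 by gd18 (SD, n = 3), had a step difference of 3.31 ± 0.55 (limma, adjusted p = 0.00429). Ebp (1.47 ± 0.28), Sc5d (1.41 ± 0.25), Hsd17b7 (1.98 ± 0.28), Lss (1.87 ± 0.36), Msmo1 (1.84 ± 0.30) and Scarb1 (1.92 ± 0.34) passed as well. The count of 198 fell to 77 without gd16 array 8, 24 without gd16 array 7 and 58 without gd16 array 9.

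Of the 198 genes 144 were positive and 54 negative, and 153 were also called between gd16 and gd14, 102 of them higher at gd16 and 51 lower. Passing both tests, which share the gd16 arrays, nearly fixes that the next step runs the other way. Over the 6 testis stages, the 773 higher genes had their highest mean at gd16 in 332 cases, at gd18 in 218 and at pnd2 in 172, and the 715 lower genes at gd14 in 483 cases. The call itself favours a peak at gd16 for higher genes and at gd14 for lower genes. Shares over all genes were not computed, so these counts are a description only. Among germ cell genes, Dnmt3l (2.68 ± 0.58) and Tdrd9 (2.34 ± 0.50) were positive, with gd18 levels of 1256 ± 767 for Dnmt3l and 1630.5 ± 787 for Tdrd9. Sox2 was negative (-7.04 ± 1.68, adjusted p = 0.0416), and it stood at 384 ± 164 at gd18 (SD, n = 3), above its gd16 level. Cdh1 (-4.62 ± 0.74), Glis3 (-3.26 ± 0.54), Six4 (-2.73 ± 0.43) and Tcl1 (-3.13 ± 0.60) were negative too.

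**Figure D4:**
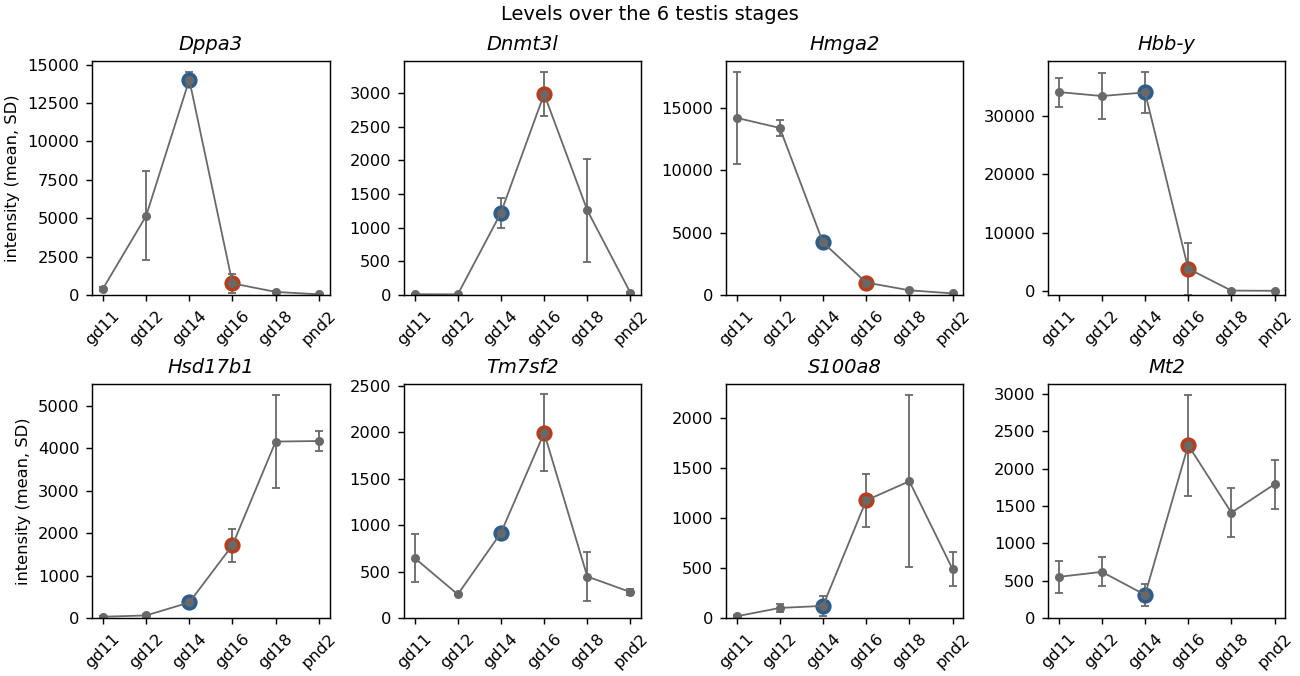
Mean intensity with SD over the arrays of each testis stage (5 at gd11, 3 at each other stage) for 8 genes, gd16 in red and gd14 in blue. Dppa3 and Hbb-y drop between gd14 and gd16, Dnmt3l, Tm7sf2 and Mt2 are highest at gd16, and Hsd17b1 is higher still at gd18.

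Of 38 genes of basement membrane and matrix, 10 rose and none fell (26.3%), with a median of 0.49. Dpt, or dermatopontin, a small matrix protein, measured 415, 179 and 335 in gd16 testes, against 72.4, 38.2 and 10.3 in gd14 testes, and it was near background in 2 of the gd14 testes (2.46 ± 0.33, adjusted p = 2.39e-04). Eln, which encodes elastin, measured 2258, 2033 and 2150.0 in gd16 testes, against 658, 639 and 575 in gd14 testes (1.75 ± 0.36, adjusted p = 0.00483). Lama2, the laminin chain of muscle-type basement membrane, measured 1774, 1507 and 1862 in gd16 testes, against 693, 717 and 621 in gd14 testes (1.31 ± 0.19, adjusted p = 4.39e-04).

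Ogn, a small proteoglycan, rose by 1.78, and the proteoglycans Dcn (1.28) and Lum (1.13), the basement membrane collagen chain Col4a4 (0.86) and the collagen VI chain Col6a2 (0.77) were also called. The fibrillar collagen Col1a1 measured 9506, 9831 and 11916 in gd16 testes, against 5037, 6153 and 5449.8 in gd14 testes and did not pass (0.90 ± 0.35, adjusted p = 0.107). The main basement membrane chain Col4a1 overlapped between stages (0.04). The count was 7 without gd16 array 8 and 4 without any 1 of the other 5 arrays, and 24 in the fit of the 6 arrays alone. Dpt, Eln, Lama2 and Ogn made up the genes called without each array in turn.

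In smooth muscle and peritubular myoid cells, 2 of 16 genes rose and none fell (median 0.43). Cnn1, or calponin, measured 176, 161 and 326 in gd16 testes, against 42.0, 15.2 and 20.6 in gd14 testes (2.31 ± 0.64, adjusted p = 0.028), and smooth muscle myosin Myh11 measured 643, 621 and 869 in gd16 testes, against 249.9, 305 and 227 in gd14 testes (1.37 ± 0.37, adjusted p = 0.0233). Both genes' groups stood apart. The calls were lost in 5 of the 6 fits without 1 array for Cnn1 and in 4 for Myh11, with the highest adjusted p, 0.127 and 0.112, without gd16 array 9. Acta2, smooth muscle actin, was not called (0.43 ± 0.57, adjusted p = 0.696). In the interstitial progenitor list, the factor Osr1 was the 1 call among 16 genes (1.82), held in 2 of those 6 fits. No gene of 20 in the endothelial list was called (median 0.15). Its vascular receptors Pecam1 and Kdr differed by -0.08 and 0.19.

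The early gonad and sex determination list held 2 falls and no rise among 13 genes (median 0.12). Six4, a homeobox factor that acts upstream of Sry, measured 194, 294 and 214 in gd16 testes, against 1506, 1224 and 1052 in gd14 testes (-2.33 ± 0.25, adjusted p = 3.56e-05), with gd16 far below gd14 on each array. Cbx2, a Polycomb protein needed for male sex determination, differed by -0.60 ± 0.15 (adjusted p = 0.0146). The steroidogenic factor Nr5a1 (0.37) and Wt1 (-0.34) were not called, and Sry was near background at both stages.

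Embryonic globins fell steeply. Hbb-y, a beta-like globin of yolk-sac red cells, measured 1292, 8957 and 1152 in gd16 testes, against 37955, 31287 and 32969 in gd14 testes. Its alpha-like partner Hba-x measured 184, 1212 and 264 in gd16 testes, against 5278, 6773 and 8320.0 in gd14 testes. The third embryonic globin, Hbb-bh1, measured 63.0, 204 and 86.0 in gd16 testes, against 575, 727 and 1592 in gd14 testes. In all 3 genes gd16 array 8 was the highest gd16 testis but lay below every gd14 testis.

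The differences were -3.82 ± 0.46 for Hbb-y, -4.00 ± 0.49 for Hba-x and -2.81 ± 0.41 for Hbb-bh1 (adjusted p = 1.00e-04, 1.07e-04 and 4.39e-04). Without gd16 array 8 they were -4.77, -4.78 and -3.22, and all 3 were called without each array in turn. By gd18 Hbb-y was near background, at 41.2 ± 9.54 (SD, n = 3). Of the other 21 measured erythroid genes 1 was called, Alas2, the first enzyme of haem synthesis in red cells, with 1554, 2249.9 and 3038 in gd16 testes, against 828, 813 and 841 in gd14 testes (1.39 ± 0.36, adjusted p = 0.0218). That rise was lost in 5 of the 6 fits without 1 array. The adult-type globin Hbb-b2 (0.88 ± 0.39, adjusted p = 0.165) and the red cell anion exchanger Slc4a1 (0.94 ± 0.61, adjusted p = 0.365) did not pass. Over the 24 genes the median was 0.29. The beta-like globin probe sets are of a kind that can share probes between related genes, so levels of Hbb-y and Hbb-bh1 may not be wholly separate.

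Of 15 neutrophil granule genes 6 rose and none fell, with a median of 0.86. S100a8, a calcium-binding subunit of calprotectin, measured 1069, 1477 and 987 in gd16 testes, against 226, 29.7 and 108 in gd14 testes. Its partner S100a9 measured 771, 1137 and 666 in gd16 testes, against 178, 32.0 and 64.7 in gd14 testes. The gd14 testes were low but uneven, array 10 being the highest, and no gd16 testis overlapped them. The rises were 3.31 ± 0.49 for S100a8 and 3.13 ± 0.55 for S100a9 (adjusted p = 4.96e-04 and 0.00188), the first being the largest of any tested gene.

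Camp, the antimicrobial peptide cathelicidin, measured 169.7, 180.3 and 213 in gd16 testes, against 8.48, 25.1 and 22.2 in gd14 testes and was near background on each gd14 array (2.38 ± 0.44, adjusted p = 0.00227). The granule proteins Lcn2 (1.90) and Ngp (1.68) and the histone-modifying enzyme Padi4 (1.37) also rose. The early granule enzymes Mpo, with 345, 385 and 52.6 in gd16 testes, against 117, 59.5 and 198 in gd14 testes, and Elane, with 197, 162 and 12.9 in gd16 testes, against 17.1, 58.5 and 47.1 in gd14 testes, were low on gd16 array 9, overlapped between stages and did not pass. The count was 6 without gd16 array 8 and 3 without gd16 array 9. The summed level of the 15 genes ran from 4612 to 5714 at gd16 and from 1427 to 2048 at gd14.

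S100a8 and S100a9 lie near each other on mouse chromosome 3, and their promoters are shown because the pair rose together. The sequences are 300 bases each from RefSeq, build GRCm38.p6, running from 250 bases before to 50 after the gene start, at chr3:90668821-90669120 on the plus strand for S100a8 and at chr3:90695672-90695971 on the minus strand for S100a9. Capitals mark TATAAA on either strand.
S100a8: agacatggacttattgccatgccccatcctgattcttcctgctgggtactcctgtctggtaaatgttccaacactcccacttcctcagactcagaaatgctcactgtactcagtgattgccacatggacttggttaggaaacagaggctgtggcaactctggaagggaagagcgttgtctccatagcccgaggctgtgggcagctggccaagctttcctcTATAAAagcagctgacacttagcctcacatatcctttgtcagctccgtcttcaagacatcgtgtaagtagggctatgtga
S100a9: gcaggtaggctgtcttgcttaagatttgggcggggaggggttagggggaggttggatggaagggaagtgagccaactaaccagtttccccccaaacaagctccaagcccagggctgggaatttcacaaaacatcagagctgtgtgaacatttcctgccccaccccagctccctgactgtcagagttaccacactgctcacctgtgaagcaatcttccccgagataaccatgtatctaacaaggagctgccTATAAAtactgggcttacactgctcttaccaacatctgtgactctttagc
Each holds 1 match, which begins at -30 from the gene start in S100a8 and at 0 in S100a9. Of the 32851 mouse promoters in the table, 13.6% hold at least 1. A match in this window describes the letters and says nothing on use of the site.

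Macrophage and leukocyte genes rose in 5 of 26 cases with none lower (19.2%), and a median of 0.58. Lyz2, the lysozyme of myeloid cells, measured 455, 400.1 and 566 in gd16 testes, against 138, 134 and 196 in gd14 testes (1.48 ± 0.31, adjusted p = 0.00537). The clotting factor gene F13a1 (1.07), the adaptor genes Tyrobp (0.91) and Fcer1g (0.88), and Cd68, a lysosomal protein, (0.71) were called as well. The defining receptors Adgre1 (0.23) and Csf1r (0.62) overlapped between stages. Without gd16 array 8 the count was 4, and without any 1 of the other 5 arrays it was 1, Lyz2. The summed level of the 26 genes ran from 5088 to 8010.1 at gd16 and from 3728 to 4779 at gd14, and the part of more blood or blood cells in any of these rises was not tested. Among the 12 largest rises of all genes, Dntt, the lymphocyte polymerase that adds bases at antigen receptor joins, measured 329.7, 222 and 265 in gd16 testes, against 9.96, 15.3 and 4.93 in gd14 testes (3.18 ± 0.47, adjusted p = 4.96e-04), and Gzmk, a lymphocyte granzyme, measured 219, 190.5 and 157 in gd16 testes, against 14.0, 8.78 and 9.01 in gd14 testes (2.67 ± 0.40, adjusted p = 4.96e-04).

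A part of the rises started near background. Of the 773 higher genes 199 (25.7%) had a gd14 mean near background, against 12.7% of all tested genes. A gene that dim at gd14 was tested only where other arrays lifted it over the filter, and it had little room to fall. Of the 199 genes 63.8% were near background at pnd2 too, against 75.2% of all genes near background at gd14. Clca1, a secreted regulator of chloride channels in mucous cells, measured 258, 153 and 239.7 in gd16 testes, against 2.13, 4.61 and 1.85 in gd14 testes (3.22 ± 0.31, adjusted p = 1.77e-05). Hsd17b2, an enzyme that oxidises oestradiol and testosterone, measured 420.3, 294 and 173 in gd16 testes, against 29.9, 7.31 and 6.54 in gd14 testes (3.08 ± 0.44, adjusted p = 4.20e-04). The gd14 testes were near background throughout for both genes.

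Of the other genes among the 12 largest rises, Dmkn, a secreted protein of the epidermis, measured 411, 316 and 374 in gd16 testes, against 33.6, 9.7 and 34.1 in gd14 testes (3.05 ± 0.38, adjusted p = 1.14e-04). Krt25, a keratin of the hair follicle sheath, measured 337, 168 and 376 in gd16 testes, against 12.7, 23.1 and 22.9 in gd14 testes (2.85 ± 0.40, adjusted p = 3.84e-04). Rab25, a small GTPase of epithelia, measured 212, 141 and 444 in gd16 testes, against 18.8, 19.1 and 12.7 in gd14 testes (2.74 ± 0.53, adjusted p = 0.00344), and gd16 array 8 was the lowest gd16 testis for Krt25 and Rab25. Ccdc113, a protein of cilia, measured 311, 195 and 368 in gd16 testes, against 10.3, 24.7 and 35.7 in gd14 testes (2.77 ± 0.41, adjusted p = 4.96e-04), and the potassium channel gene Kcnn4 measured 228, 175 and 199 in gd16 testes, against 13.3, 15.1 and 9.35 in gd14 testes (2.67 ± 0.35, adjusted p = 2.09e-04). The other kept Kcnn4 probe set averaged 116 at gd16 and 57.0 at gd14 (1.12) and was not called. The basal keratin Krt5 averaged 92.8 at gd16 and 96.6 at gd14, and the cilium factor Foxj1 was near background at both stages (both chosen after their values were seen). The steps of Clca1, Dmkn, Krt25, Ccdc113, Kcnn4, Dntt, Gzmk and Hsd17b2 passed the step difference test with positive values, between 3.24 for Kcnn4 and 5.44 for Hsd17b2.

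Some lists of other tissues that a dissection could hold contained rises. In the skeletal and cardiac muscle list 3 of 18 rose and none fell (16.7% higher, against 5.39% of all genes, median 0.70), and the giant sarcomere protein titin, Ttn, measured 212, 273 and 289 in gd16 testes, against 51.7, 19.1 and 49.4 in gd14 testes (2.21 ± 0.43, adjusted p = 0.00344). The list's other calls were Tnnc2 (1.95) and Myl4 (1.23), a troponin and a myosin light chain, and 1 or 2 rises remained in each fit that left out an array, Ttn in all of them. The summed level of that list ran from 2682 to 4039 at gd16 and from 2002 to 2470 at gd14. Of 6 liver plasma protein genes 2 rose (33.3%), fibrinogen chain Fgg (2.36 ± 0.43, adjusted p = 0.00224) and Ahsg (0.96), while albumin, Alb, was near background on 2 arrays of each stage. Alpha-fetoprotein, Afp, measured 1986, 1375 and 2308 in gd16 testes, against 678, 446 and 557 in gd14 testes. Its groups did not overlap, yet it did not pass (1.70 ± 0.78, adjusted p = 0.178). Its other kept probe sets differed by 1.76, 1.26 and -0.48, and none was called. The Ahsg call was lost in 5 of the 6 fits without 1 array. In the adrenal list Pnmt, which makes adrenaline, was the 1 call among 11 (1.41) and held in 2 of those fits, and the cortex enzyme Cyp21a1 overlapped between stages. The cortex gene Cyp11b1 (0.71) and the medulla gene Th (-0.83) had ranges that did not overlap, in opposite directions, but were not called. Other kept Pnmt probe sets differed by 1.33 and -0.08 and were not called. No gene of the adrenal list was called with the mean over a gene's probe sets. In the mesonephros list Lhx1, given above with the spermatogonial genes, was the 1 call among 14, and no gene of 10 neural, 5 mast cell or 11 ovarian genes was called. The part that neighbouring tissue had in these values was not tested.

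**Figure D5:**
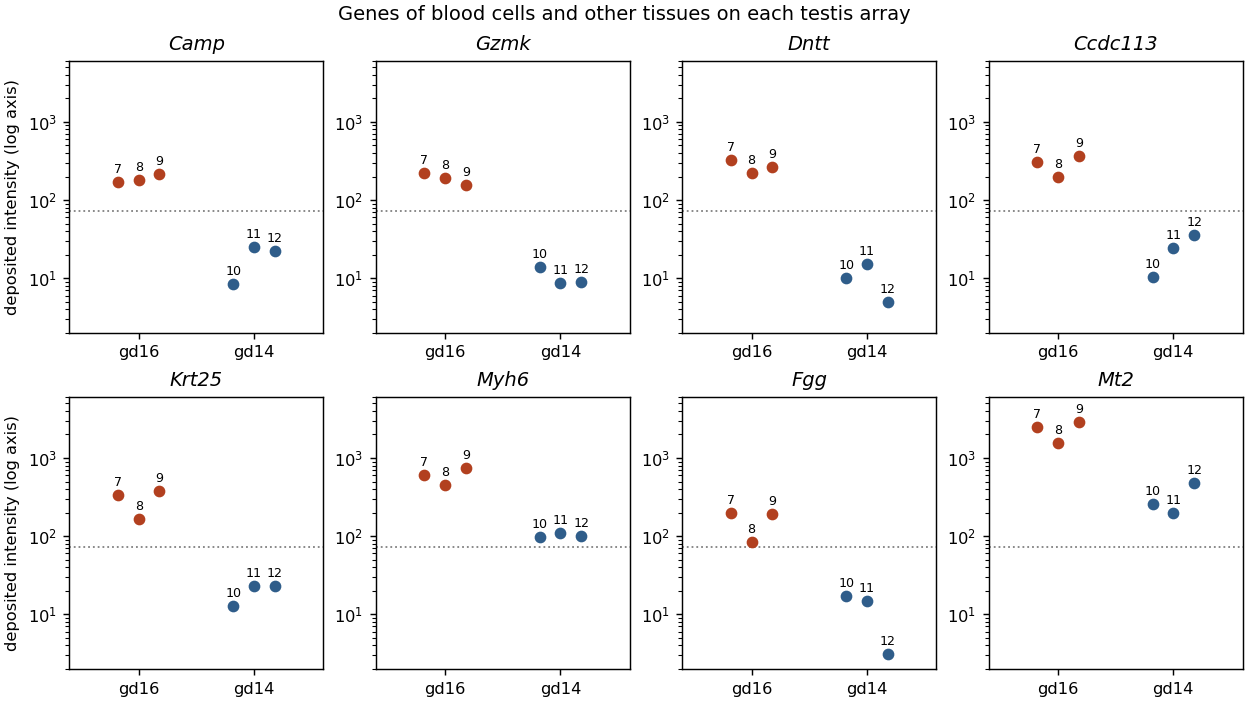
Deposited intensity (log axis) of 8 genes on each array, gd16 in red at the left and gd14 in blue at the right, numbered by array, with the near-background level of 71.6 as a dotted line. Each gene is higher on every gd16 array than on any gd14 array, and gd16 array 8 is the lowest gd16 array for Dntt, Ccdc113, Krt25, Myh6, Fgg and Mt2.

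Mt2, a metallothionein that binds zinc and other metals, was the seventh largest rise. It measured 2522, 1560.1 and 2863 in gd16 testes, against 259, 196 and 476 in gd14 testes, with no overlap, and differed by 2.86 ± 0.35 (adjusted p = 1.09e-04). Its neighbour Mt1, chosen after its values were seen, measured 4768, 2312 and 3698 in gd16 testes, against 670.1, 623 and 429 in gd14 testes (2.56 ± 0.27, adjusted p = 3.05e-05). Both rises were followed by lower means at gd18, 1411 ± 325 for Mt2 and 1897 ± 551 for Mt1 (SD, n = 3), with step differences of 3.54 ± 0.61 and 3.45 ± 0.47. Both were called without each array in turn.

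The promoters of Mt2 and Mt1 are shown because the 2 neighbours rose together and their metal response elements are a textbook case. Each is 300 bases from RefSeq, build GRCm38.p6, on the plus strand, at chr8:94172368-94172667 for Mt2 and at chr8:94178839-94179138 for Mt1, with the gene start after the first 250 bases. Capitals mark the metal response element core on either strand, searched as TGCACNC and TGCGCNC, where N is any base.
Mt2: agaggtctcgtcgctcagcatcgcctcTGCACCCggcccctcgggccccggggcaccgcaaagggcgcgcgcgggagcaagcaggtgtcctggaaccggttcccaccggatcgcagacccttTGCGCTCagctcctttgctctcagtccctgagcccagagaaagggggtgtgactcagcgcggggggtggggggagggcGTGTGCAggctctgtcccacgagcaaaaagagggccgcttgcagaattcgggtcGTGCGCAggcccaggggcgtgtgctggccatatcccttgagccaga
Mt1: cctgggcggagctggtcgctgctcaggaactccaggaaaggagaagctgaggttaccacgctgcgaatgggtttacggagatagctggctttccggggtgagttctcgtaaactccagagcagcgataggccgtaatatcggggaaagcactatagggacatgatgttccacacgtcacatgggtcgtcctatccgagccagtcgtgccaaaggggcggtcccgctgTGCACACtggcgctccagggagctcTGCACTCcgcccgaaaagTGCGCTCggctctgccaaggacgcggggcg
Mt2 holds 4 matches and Mt1 holds 3. Of all 32851 promoters in the table, 25.7% hold at least 1 match and 1.97% hold 3 or more.

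Of 21 immediate early and stress genes, which respond to handling and heat, none rose and 4 fell, with a median of 0.17. Ier3, an immediate early gene, measured 270.1, 215 and 267 in gd16 testes, against 547, 533 and 619 in gd14 testes (-1.11 ± 0.20, adjusted p = 0.00188). The chaperone Hsp90aa1 measured 19202, 19102 and 18097 in gd16 testes, against 28772, 24927 and 27098 in gd14 testes (-0.52 ± 0.10, adjusted p = 0.00427), and the chaperones Hsph1 (-0.61) and Hspa8 (-0.29) fell too. The immediate early genes Fos (0.56) and Egr1 (0.64) had higher means at gd16 and did not pass.

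In glutathione and detoxification, 3 of 22 genes rose and none fell (median 0.16), namely the glutathione transferases Gsta2 (1.22) and Gstm5 (0.47) and the epoxide hydrolase Ephx1 (0.75). Among 17 imprinted genes, Grb10, a growth inhibitor, rose (0.50 ± 0.10, adjusted p = 0.00441) and none fell (median 0.18), while Dlk1 (0.69) did not pass. Psmb9, an immunoproteasome subunit, was the 1 call among 15 genes of antigen presentation and interferon response (1.32, median 0.61). Cdon, a hedgehog co-receptor, was the 1 call among 13 hedgehog genes (0.65, median 0.06), and the target Gli1 did not pass (0.33). Of the calls in these 4 lists, Grb10 and Gstm5 held without each array in turn, Ephx1 in 5 of the 6 fits, Cdon in 3, Psmb9 in 1 and Gsta2 in none. No gene was called among 16 of retinoic acid, 14 hormone receptors or the 2 measured genes of the Rhox list. That list leaves out Rhox5, which fell and is given above with the Sertoli list.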

How the data were processed

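Total RNA of whole testes was hybridised to single-channel Affymetrix expression arrays. Per the submitters' processing notes the authors made the deposited intensities with GCOS, the array maker's software. The labels name neither its version nor its algorithm and no detection calls were used, so that the number of arrays limits the precision. The mean of each array, without the lowest and highest 2% of probe sets, is at 1 common level.

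The deposited intensities were turned into log2(intensity + 22.4). Dim probe sets were left out, namely those above the 40th percentile of their own array on fewer than 3 arrays of the 20 from testis, and the kept probe set with the highest mean stood for its gene. For 751 called genes other probe sets were kept: 1144 of 1328 had the same direction, of which 310 were called, and 1 was called in the opposite direction. Gene names come from GEO's platform annotation, and probe sets that name several genes or none were not used. Stage means were fitted over the 20 testis arrays with limma (version 3.58.1, R 4.3.3), with an intensity trend and Benjamini-Hochberg adjustment. The procedure was tested on simulated data. No count model was used.

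The 4 marker genes, the 12 largest rises and falls with ranges apart, the defining members of each list and up to 6 called members in each direction are named. Of the defining members, Aldh1a1 (-0.23), Cpa3 (-0.04), Cyp26b1 (-0.40), Hspa1b (0.19) and Myh3 (1.57) were not given above. Nor were Nefl (0.69), Nr2f2 (0.01), Pdgfra (0.44) and Zbtb16 (0.08). None of these genes was called. Listed genes named beyond this rule, as well as Mt1, Myh6 and the genes of the last part, were chosen after their values were seen. The comparison, the marker genes and the gene lists were chosen with earlier results of these data known, so a list's count is a description and is not independent evidence of its direction. A gene may stand in several lists, and listed genes with no single-gene probe set were not measured here. Alternatives were the arrays in the fit, the offset, the filter, quantile normalization, the mean over a gene's probe sets, the trend and each left-out array.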

Additional observations from a re-analysis of the deposited data

How the results depend on the processing

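The number of called genes depended on the arrays used to estimate the spread. Against 1488 genes (773 higher, 715 lower), the fit of the 6 arrays alone called 3020 (1761 higher, 1259 lower), and the fit of the 12 single-animal arrays called 2824 (1675 higher, 1149 lower). Of the 1488 genes, 1464 and 1485 were among those. The step difference count was 576 with 12 arrays, against 198, and 252 after quantile normalization. Leaving out 1 array of the 6 gave 494 to 1226 called genes, 220 to 606 higher and 274 to 620 lower, the fewest without gd16 array 9. For the step difference, leaving out 1 gd16 array gave 24 to 77. The offsets, filters, quantile normalization, mean over probe sets and fit without a trend gave 1292 to 1683 called genes. Higher genes made up 51.9% of the calls and 47.2% to 53.7% under those settings.

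Of 140 called genes named by the rule or in the last part, 65 were called without each array in turn and 75 were lost without at least 1. All 140 kept their direction in these fits. Among the 227 genes compared one by one, the 1 that reversed was Cfap43, a cilium gene not called here, which was represented by another probe set under the filter at the array median (1.56, adjusted p = 0.0363). Of all 1488 calls, 11 turned sign with the mean over a gene's probe sets, 1 with the smaller offset and 1 with no filter. No paired analysis was possible because the gd16 and gd14 samples came from different animals, according to the series each with a dam of its own.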

Other observations

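Of 23 measured genes of the motile cilium, 14 were called higher at gd16 and 1 lower, against 5.39% and 4.99% of all tested genes. The group was chosen after its values were seen, so the count is a description only. Ropn1l, a protein of the sperm and ciliary tail, measured 809, 527 and 879 in gd16 testes, against 136, 104 and 137 in gd14 testes (2.34 ± 0.26, SE). Deup1, which helps multiciliated cells make centrioles, measured 189.9, 108 and 297 in gd16 testes, against 9.43, 20.6 and 13.9 in gd14 testes (2.49 ± 0.40). Hydin, a central pair protein, measured 206, 222 and 227 in gd16 testes, against 41.4, 49.5 and 71.6 in gd14 testes (1.67 ± 0.48). All 3 genes had groups that did not overlap. Rsph9, a radial spoke protein, ran the other way with 99.0, 8.67 and 168 in gd16 testes, against 652, 291 and 566 in gd14 testes (-2.48 ± 0.56). Foxj1, the master factor of motile cilia, measured 62.6, 32.4 and 41.7 in gd16 testes, against 61.5, 9.2 and 48.1 in gd14 testes and was thus near background at both stages.

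Groups of 2 other tissues were chosen the same way. Of 22 sarcomere genes 10 were called higher, and of 26 genes of the epidermis and other surface epithelia 12, with no lower call in either. Of all tested genes 5.39% were called higher, and these counts too are descriptions only. In muscle, the myosin Myh1 measured 259.6, 149 and 504 in gd16 testes, against 18.8, 22.9 and 57.8 in gd14 testes (2.47 ± 0.45), and Myh6 measured 608, 451 and 736 in gd16 testes, against 97.5, 109 and 99.7 in gd14 testes (2.29 ± 0.33). In the epidermis, Krt27 of the hair follicle sheath measured 266, 188 and 265 in gd16 testes, against 19.1, 34.4 and 65.9 in gd14 testes (2.13 ± 0.36). Members that did not pass included some with negative differences, namely Tcap (-0.76) and Acta1 (-0.32) of muscle and Grhl3 (-0.93), Esrp1 (-0.87) and Lor (-0.56) of epithelia. Krt14, a keratin of basal epidermis, averaged 81.2 at gd16 and 63.7 at gd14 and was not called. For Myh1, Krt27, Deup1 and Ropn1l gd16 array 8 was the lowest gd16 testis. Their gd18 means were 326 ± 203, 259 ± 58.3, 163 ± 83.9 and 1123 ± 324 (SD, n = 3).

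Of 18 interferon-stimulated genes, also chosen after their values were seen, 8 were called higher and 1 lower, against 5.39% and 4.99% of all tested genes. Rtp4, a receptor chaperone induced by interferon, measured 557, 176 and 849 in gd16 testes, against 65.6, 108 and 77.2 in gd14 testes (2.15 ± 0.56). Irf9, a subunit of the interferon response factor, measured 678, 347 and 999 in gd16 testes, against 160.0, 214 and 160.3 in gd14 testes (1.69 ± 0.32). Array 8 was the lowest gd16 testis for both, and array 9 the highest. Stat2, a signal transducer of interferon, varied less, with 424, 341 and 382 in gd16 testes, against 271, 322 and 266 in gd14 testes, and was not called (0.39 ± 0.20). The RNA sensor Ddx58 fell (528, 425 and 752 in gd16 testes, against 1369, 1243 and 1038 in gd14 testes, -1.10 ± 0.25). The zinc importer Slc39a4 measured 410.3, 264 and 491 in gd16 testes, against 110.0, 64.7 and 98.1 in gd14 testes (1.84 ± 0.38). With Mt1 and Mt2 it made up the 3 calls among 6 metallothionein and zinc genes, also chosen after their values were seen. The group's other members, Mt3 (0.07), Mtf1 (0.20) and Slc30a1 (0.12), were not called and overlapped between stages.

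Among 5160 kept probe sets that name no single gene, 88 were called higher and 89 lower at gd16. They are not named here.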
